A study of Mus musculus with 12 samples.

Results

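The 35 genes described here are those of blood vessel endothelium and of vessel growth: 14 adhesion and identity markers of endothelial cells, 3 endothelial transcription factors, 4 ligands and 3 receptors of the VEGF family, the 4 genes of the angiopoietin and Tie system, apelin with its receptor, and 5 Notch and ephrin genes. They were picked by gene symbol from the 24197 genes in the count table. No measured value entered the rule, but the members were chosen with earlier results of these data known. All 35 are in the table, and all 35 passed the filter on low counts that left 15265 genes for testing.

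RNA was sequenced from mouse brown adipose tissue (BAT), the fat depot that burns fuel to make heat. There were 12 libraries in 4 groups of 3, from animals 8 to 10 weeks old. Every animal carried floxed alleles of Ebf2, a transcription factor of the brown fat lineage (Ebf2 fl/fl). Controls lacked Adipoq-Cre, and the animals labelled mutant carried it. Cre is then driven by the promoter of an adipocyte gene, so endothelial cells are expected to keep the floxed alleles. Recombination was not measured here. A control and a mutant group stayed at room temperature and another of each spent 1 week at 4 °C. The labels do not say that replicates came from separate animals, so p-values measure only the spread between these libraries, which may be technical.

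Ebf2 itself did not separate the genotypes at room temperature. It was at 47.4, 64.1 and 32 CPM (read counts relative to the library's TMM-scaled total) in control libraries and at 65.2, 45.7 and 38.3 CPM in the libraries labelled mutant, a log2 difference of 0.06 ± 0.25 (SE; adjusted p = 0.931) that turned negative in 4 other fits. In the cold the values were 52.3, 42.2 and 41.6 CPM against 28.7, 21.6 and 27 CPM, which did not overlap, with a log2 difference of -0.82 ± 0.25 that was not called (adjusted p = 0.153). The count covers the whole gene and not the floxed part alone, so "mutant" below means the library labelled so. Skeletal muscle transcripts (16 genes) summed to 25280, 17930, 20620 and 9850 CPM in 4 libraries (control room temperature 1 and 3, mutant room temperature 3 and control cold 3) and to between 7.43 and 6030 CPM in the other 8. Those 4 are called the muscle-rich libraries.

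Endothelial cells line every vessel and answer to a small set of signals. VEGF-A, secreted by the tissue, binds the receptors encoded by Kdr and Flt1 and drives sprouting. Angiopoietin 1 steadies vessels through the receptor encoded by Tek, angiopoietin 2 loosens them, and Notch signalling from Dll4 restrains sprouting. Brown fat is densely vascularised, and cold exposure is known to raise VEGF-A in it and to expand its capillary bed.

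The tissue held a clear endothelial signal in all 12 libraries. The markers Pecam1, Cdh5, Tie1, Tek, Esam, Egfl7, Erg, Robo4, Emcn and Eng, all of them members, summed to between 662 and 1205 CPM. The lymphatic markers (Prox1, Lyve1, Pdpn, Ccl21a, Mmrn1 and Reln) summed to between 7.24 and 22.1 CPM. Per kilobase of exon in control BAT at room temperature, the water channel gene Aqp1 had the highest level of the members at 197 CPM per kb. Vegfa followed at 118, Vegfb at 97.2 and the VE-cadherin gene Cdh5 at 47.3 CPM per kb. At the lower end of that scale were the Flt4 ligand Vegfc at 0.805, Angpt2 at 0.682 and the placental growth factor gene Pgf at 0.31 CPM per kb. After the cold week in controls, Vegfa led at 232 CPM per kb and Aqp1 was at 57.7 CPM per kb. This is bulk tissue, so more endothelial cells and more RNA per endothelial cell cannot be told apart.

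**Figure D1:**
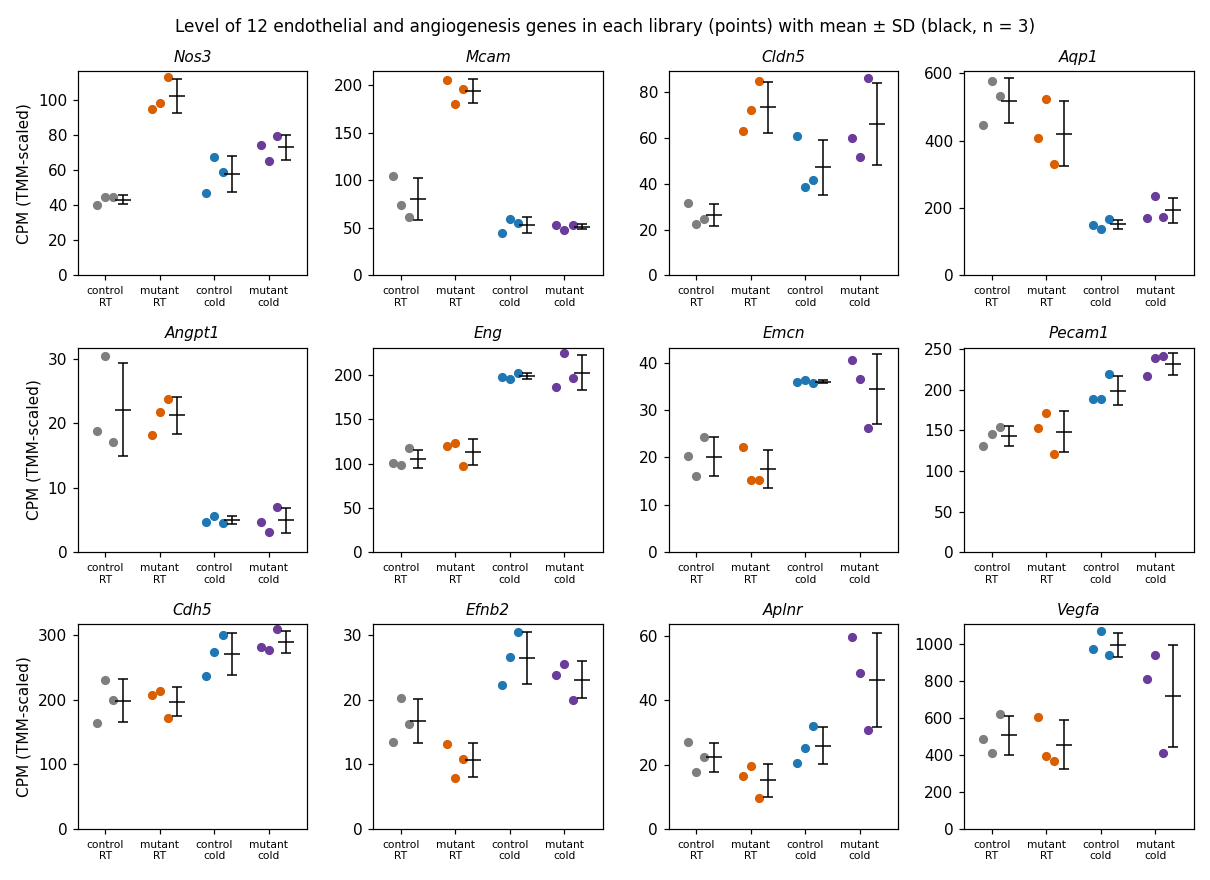
Level of 12 members in each library (points; CPM scaled by TMM, linear axes from 0) in the 4 groups, with the mean and SD of 3 libraries in black. Nos3, Mcam and Cldn5 stand high in mutants at room temperature; Aqp1 and Angpt1 are low, and Eng is high, in both cold groups.

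At room temperature, libraries labelled mutant differed from controls in 3 of the 35 members, all 3 higher, and the other 32 were not called (adjusted p of 0.05 or more, edgeR). The 3 are Nos3 (endothelial nitric oxide synthase), Mcam (the adhesion molecule CD146, made by endothelial cells and pericytes) and Cldn5 (claudin 5, the tight junction protein of endothelium). Over all genes tested, 6.24% were called in this comparison, 3.92% higher and 2.32% lower. The median log2 difference over the members was -0.06, against -0.04 over all genes.

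Nos3 was at 40.2, 45 and 44.6 CPM in controls and at 95, 98.8 and 113 CPM in mutants. The groups lay far apart and each was tight, and the log2 difference was 1.24 ± 0.14 (adjusted p = 0.00116). In the reference annotation 32.3% of the exon bases of Nos3 are shared with other genes, among them the antisense gene Atg9b, which was at 7.6, 7.3 and 6.28 CPM in controls and 11.4, 12 and 13.6 CPM in mutants. The strand setting of the counts is not given in the sources used here, so reads of this pair may be mixed.

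Mcam was at 105, 74.4 and 61.7 CPM in controls and at 206, 180 and 196 CPM in mutants. The lowest mutant library was well above the highest control, with a log2 difference of 1.27 ± 0.18 (adjusted p = 0.00221). Cldn5 was at 31.7, 22.4 and 24.8 CPM in controls and at 62.9, 72.2 and 85 CPM in mutants, again without overlap. Its log2 difference was 1.48 ± 0.23 (adjusted p = 0.00367). The 3 calls held when any 1 of the 12 libraries was left out. Without the 4 muscle-rich libraries, which leaves 1 control, none of the 3 was called, although the log2 differences were 1.11 for Nos3 (adjusted p = 0.115), 1.38 for Mcam (adjusted p = 0.0526) and 1.59 for Cldn5 (adjusted p = 0.125).

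Promoters of Mcam and Cldn5 are in the RefSeq table (GRCm38.p6) and are shown because Ebf2, the gene the floxed alleles target, encodes a factor that binds the EBF core CCCNNGGG. Nos3, also called at room temperature, is not in that table, so its promoter could not be searched. Each sequence is the 250 bases before the transcription start, on the plus strand, at chr9:44134408-44134657 for Mcam and chr16:18776597-18776846 for Cldn5, and capitals mark matches to that core, which reads the same on both strands.
Mcam: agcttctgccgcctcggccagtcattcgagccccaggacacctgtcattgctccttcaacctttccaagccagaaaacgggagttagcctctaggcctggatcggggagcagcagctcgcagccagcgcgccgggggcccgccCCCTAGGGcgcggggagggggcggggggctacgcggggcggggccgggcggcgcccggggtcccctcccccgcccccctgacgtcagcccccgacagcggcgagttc
Cldn5: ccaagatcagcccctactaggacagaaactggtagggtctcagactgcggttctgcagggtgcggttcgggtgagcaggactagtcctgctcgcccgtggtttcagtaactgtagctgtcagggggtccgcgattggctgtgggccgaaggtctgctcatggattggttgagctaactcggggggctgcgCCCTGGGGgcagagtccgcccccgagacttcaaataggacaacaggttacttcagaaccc
Mcam holds 1 match, CCCTAGGG, 107 bases before the start, and Cldn5 holds 1, CCCTGGGG, 60 bases before it. Of 32851 promoter windows of this length in the table, 11.8% hold the core. The table has windows for 23 of the 35 members, 29 windows in all, and 10 of the 29 hold it. Some members have several windows, which may overlap, so the 29 are not independent. Base composition was not considered, and enrichment was not tested. A match of letters is a description and does not show binding.

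Each member was also set against the summed CPM of the 10 endothelial markers, a member that is itself one of the 10 being left out of the sum and so set against the other 9. By this ratio the groups did not overlap for 8 of 35 members, 6 of them higher in mutants (Nos3, Mcam, Cldn5, Pgf, Pecam1 and Eng) and 2 lower (Aqp1 and Efnb2). The share over all genes was not computed for this ratio. In CPM, groups did not overlap for 24.8% of all genes in this comparison. Nos3 was 0.0486 to 0.0532 of the sum in controls and 0.108 to 0.171 in mutants, and Cldn5 was 0.0248 to 0.0421 and 0.0726 to 0.128. Mcam was 0.0672 to 0.139 of the sum in controls and 0.196 to 0.297 in mutants. The gap was narrow for Pecam1, at 0.191 to 0.209 and 0.214 to 0.230 of the other 9, and for Eng, at 0.122 to 0.155 and 0.155 to 0.172. The sum itself overlapped between the groups, at 755 to 918 CPM in controls and 662 to 916 CPM in mutants.

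In CPM the other endothelial markers overlapped between the genotypes. Pecam1 (CD31, the junctional marker of all endothelium) was at 130, 145 and 154 CPM in controls and 153, 171 and 121 CPM in mutants. Cdh5 was at 165, 231 and 201 CPM against 207, 214 and 171 CPM. Both pairs of groups overlapped throughout. Endothelial transcription factors were likewise mixed, with Erg between 21.7 and 25 CPM in controls and between 18.1 and 25.8 CPM in mutants.

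Among ligands and receptors, no member was called at room temperature. Vegfa was at 488, 412 and 620 CPM in controls and 607, 394 and 366 CPM in mutants. Flt1, the high-affinity VEGF receptor that also acts as a decoy, was at 78.3, 182 and 141 CPM against 89.8, 102 and 95.4 CPM, with a log2 difference of -0.48 ± 0.26 (adjusted p = 0.335). Control library 1 lay below all 3 mutants here, and the other 2 controls lay above them. Dll4 had 12.7, 24.6 and 25.2 CPM against 14.5, 15.9 and 9.37 CPM, a log2 difference of -0.65 ± 0.31 (adjusted p = 0.265). The same control library was the lowest of its group for Kdr, Flt1, Flt4, Tek, Tie1, Notch1, Notch4, Dll4, Ephb4 and Efnb2. Without it, Flt1 and Tek passed the threshold as lower in mutants, and 5 members and 1152 of all genes were called.

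Efnb2, the arterial ephrin that signals to the venous receptor encoded by Ephb4, was the 1 member with separate groups in the lower direction. It was at 13.5, 20.3 and 16.2 CPM in controls and 13.1, 7.89 and 10.9 CPM in mutants, so that the lowest control and the highest mutant almost touched. The log2 difference was -0.65 ± 0.21 and was not called by edgeR (adjusted p = 0.095), while DESeq2, limma-voom and scaling by library totals called it. Groups that did not overlap were found for 24.8% of all genes in this comparison, and for 4 of the 35 members. Pgf, at the low end of the scale, was at 1.43, 0.545 and 0.731 CPM in controls and 2.77, 3.06 and 1.32 CPM in mutants, with overlap.

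In wider lists of vessel genes, 2 of 39 further endothelial genes rose and 0 fell, where 6.24% of all genes were called. Cav1, encoding the caveolar coat protein of endothelium and adipocytes, was at 963, 956 and 876 CPM in controls and 1607, 1500 and 1574 CPM in mutants (log2 difference 0.74 ± 0.13). Ephb2, an Eph receptor, had a log2 difference of 1.64 ± 0.37, a call that ended when control 2 or 3 or mutant 2 or 3 was dropped. Of 42 other genes tested from the VEGF, angiopoietin and hypoxia list, 2 rose and 0 fell. The first was Hgf, encoding hepatocyte growth factor, at 0.603, 0.509 and 0.305 CPM in controls and 2.44, 3.57 and 2.13 CPM in mutants (2.51 ± 0.40). The second was the lipoprotein lipase inhibitor gene Angptl4 (0.95 ± 0.22), whose call ended when control 2 or 3 or mutant 1 or 3 was dropped. Of 18 further Notch genes only Mfng, a glycosyltransferase of Notch receptors, was called, at 34.7, 17.4 and 24.7 CPM in controls and 78.8, 88.8 and 83.8 CPM in mutants (1.71 ± 0.25).

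Markers of other cell types moved in the same comparison. Of 16 mural markers 1 was higher, the pericyte proteoglycan gene Cspg4, at 93.3, 142 and 77.1 CPM in controls and 180, 268 and 259 CPM in mutants (log2 difference 1.18 ± 0.28). That call ended when control 1 or 3 or mutant 2 or 3 was dropped. The summed level of the mural list overlapped, at 768 to 1137 CPM in controls and 739 to 1016 CPM in mutants. The fibroblast list, with 2 of 10 genes higher, summed to 2367 to 3564 CPM and 5149 to 6154 CPM, without overlap. Its median log2 difference was 0.135, so the step in the sum was not shared by all 10 genes. The adipocyte list, with 4 of 14 higher and 1 lower, summed to 29110 to 33100 CPM and 36440 to 43050 CPM (median log2 difference 0.388). Lens genes, of the crystallins and fibre proteins of the eye, fell in 10 of 12 and summed to 319.6 to 839.5 CPM in controls and 55.2 to 103 CPM in mutants. The part of these lists in the 3 member calls was not tested.

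**Figure D2:**
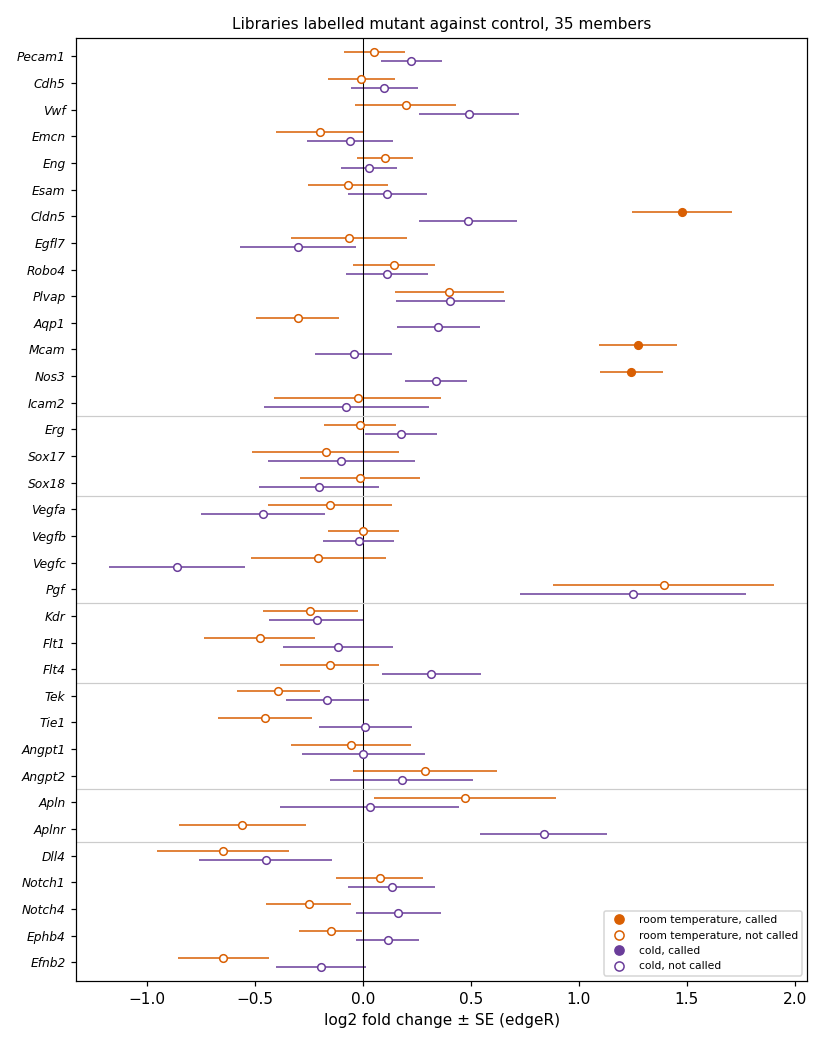
Log2 fold change with its SE for each of the 35 members, libraries labelled mutant against control, at room temperature and in the cold; filled points are called. At room temperature the filled points are Nos3, Mcam and Cldn5, at 1.24, 1.27 and 1.48, and in the cold no point is filled.

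After the week at 4 °C the genotypes differed in none of the 35 members, where 1.12% of all genes were called, 0.727% higher and 0.393% lower. The smallest adjusted p was 0.209, for Aplnr. Of the 35 members, 4 had an unadjusted p under 0.05 in edgeR, as did 15.3% of all genes. DESeq2 called 0 members, and limma-voom with quality weights called 1, Aplnr, among 1119 of all genes. The median log2 difference over the members was 0.03, against -0.01 over all genes.

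The 3 genes of the room temperature comparison were close together in the cold. Mcam was at 44.2, 59.6 and 55.1 CPM in controls and 53.3, 48.1 and 52.8 CPM in mutants, fully overlapping. Nos3 was at 47, 67.8 and 58.8 CPM against 74.5, 65.3 and 79.6 CPM. Cldn5 was at 60.9, 38.6 and 41.7 CPM against 60.2, 51.6 and 86.1 CPM. For both Nos3 and Cldn5 the ranges overlapped, with the mutant mean the higher.

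The apelin receptor gene Aplnr, expressed by sprouting and venous endothelium, was at 20.5, 25.3 and 32 CPM in cold controls and 59.8, 48.4 and 30.7 CPM in cold mutants. Mutant library 3 fell within the control range and the other 2 lay above it. Vegfc was at 3.03, 2.07 and 2.82 CPM in controls and 1.43, 1.67 and 1.26 CPM in mutants, which did not overlap, with a log2 difference of -0.86 ± 0.31 (adjusted p = 0.217). Pgf, which encodes a ligand of the Flt1 receptor, was at 0.654, 0.79 and 0.457 CPM in controls and 2.51, 1.23 and 0.824 CPM in mutants, with a log2 difference of 1.25 ± 0.52 (adjusted p = 0.281). Aqp1 was the third member with separate groups, at 149, 139 and 167 CPM against 169, 234 and 175 CPM. Groups were separate for 24.8% of all genes here too.

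Vegfa was at 975, 1068 and 938 CPM in cold controls and 809, 942 and 411 CPM in cold mutants. The low value belongs to mutant library 3, where the other 2 were near the controls. That library also had an epithelial marker sum of 254 CPM, against 2.65 to 24.4 CPM in the other 11 libraries, and a muscle sum of 6030 CPM. The part of these in its Vegfa value was not tested.

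Hgf was the only gene of the wider vessel lists called between genotypes in the cold. It was at 0.792, 0.395 and 0.381 CPM in controls and 4.3, 3.26 and 2.94 CPM in mutants (log2 difference 2.73 ± 0.40, adjusted p = 0.00855), as well separated as at room temperature. The call was lost without cold control library 2 (adjusted p = 0.0553), cold control library 3 (adjusted p = 0.0606) or the muscle-rich libraries (adjusted p = 0.125). The core endothelial sum was 1056 to 1161 CPM in cold controls and 1109 to 1205 CPM in cold mutants. The adipocyte sum was 37400 to 39140 CPM and 47080 to 49810 CPM, with 1 of 14 genes called higher and a median log2 difference of 0.107.

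Cold was called for more members than genotype was. In controls, 5 of 35 were called: Eng, Emcn and Cldn5 rose, and Aqp1 and Angpt1 fell. The background was 6.62% of all genes, 4.31% higher and 2.31% lower. In mutants 10 were called, 6 higher and 4 lower, against a background of 17.4% (10% higher and 7.42% lower). In controls DESeq2 and limma-voom each called 12 members, adding Pecam1, Vegfa, Efnb2 and Icam2 in both. Over all 15265 genes tested, DESeq2 called 2018 there and limma-voom 3402. The 10 in mutants were Eng, Emcn, Pecam1, Cdh5, Aplnr and Efnb2, which rose, and Angpt1, Aqp1, Mcam and Nos3, which fell. The median log2 change over the members was 0.14 in controls and 0.28 in mutants, against -0.01 over all genes in each genotype.

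Angpt1, which encodes the activating ligand of the Tek receptor and is made by cells around the vessel, fell most in controls. It was at 18.8, 30.4 and 17.2 CPM at room temperature and 4.72, 5.63 and 4.5 CPM in the cold. In mutants it was at 18.2, 21.8 and 23.8 CPM and then 4.72, 3.11 and 6.98 CPM. The log2 changes were -2.16 ± 0.29 in controls (adjusted p = 0.00217) and -2.10 ± 0.29 in mutants (adjusted p = 0.000685), so the fall had nearly the same size in both. Its competitor ligand Angpt2 was at 2.06, 1.96 and 3.53 CPM and then 3.82, 3.75 and 4.72 CPM in controls. That log2 change of 0.70 ± 0.33 was not called (adjusted p = 0.227), although the groups were separate. In mutants Angpt2 was at 2.27, 4.43 and 2.54 CPM and then 4.46, 6.05 and 3.42 CPM, with overlap.

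The Tie receptors were not called in any comparison with all 12 libraries. Tek was at 42.1, 81 and 61.7 CPM in controls at room temperature and 48.1, 44.1 and 51.4 CPM in the cold, within the first range, and it was called lower when control room temperature library 1 was left out. In mutants it was at 49.5, 49.5 and 41.7 CPM and then 41, 41.1 and 45.9 CPM. As a ratio to the other 9 endothelial markers, whose sum was itself higher in the cold, Tek was lower in the cold in both genotypes, without overlap. That ratio was 0.0591 to 0.0984 and then 0.0421 to 0.0477 in controls, and 0.0572 to 0.0672 and then 0.0353 to 0.0432 in mutants. The ratio for Tie1, also to the other 9, was 0.151 to 0.230 and then 0.103 to 0.118 in controls and 0.128 to 0.167 and then 0.0988 to 0.112 in mutants. By such ratios 10 of 35 members were lower without overlap in cold controls and 5 higher. In cold mutants 12 were lower and 4 higher, with Robo4, Vegfb and Notch1 among the lower ones in both genotypes. The higher sum in the cold lowers this ratio for a gene whose CPM is unchanged, and the share over all genes was not computed.

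Aqp1, whose product lets water cross capillary endothelium and red cells, fell in both genotypes. It was at 447, 578 and 532 CPM in controls at room temperature and 149, 139 and 167 CPM in the cold, a log2 change of -1.78 ± 0.20 (adjusted p = 0.000988). In mutants it went from 408, 523 and 330 CPM to 169, 234 and 175 CPM, a log2 change of -1.12 ± 0.19 (adjusted p = 0.0024). Red cell and platelet genes (10 genes) summed to 1368 to 5363 CPM in controls at room temperature and 1804 to 3949 CPM in the cold, and to 1308 to 2010 and 1562 to 2608 CPM in mutants. None of the 9 tested was called. Relative to the endothelial marker sum, Aqp1 was at 0.579 to 0.638 and then 0.127 to 0.144 in controls, and at 0.471 to 0.570 and then 0.151 to 0.195 in mutants.

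Eng, encoding the TGF-beta family co-receptor endoglin, rose in both genotypes with little spread. Controls went from 101, 98.7 and 118 CPM to 198, 196 and 203 CPM, and mutants from 120, 123 and 96.9 CPM to 186, 225 and 197 CPM. The log2 changes were 0.91 ± 0.13 (adjusted p = 0.00303) and 0.84 ± 0.13 (adjusted p = 0.00134). Emcn, encoding the sialomucin endomucin of venous and capillary endothelium, went from 20.3, 16.1 and 24.2 CPM to 35.9, 36.3 and 35.7 CPM in controls. In mutants it went from 22.1, 15.2 and 15.3 CPM to 40.5, 36.5 and 26.3 CPM. Neither pair of groups overlapped, and the log2 changes were 0.83 ± 0.20 (adjusted p = 0.0316) and 0.97 ± 0.20 (adjusted p = 0.00685). In controls the Emcn call was lost in 7 of the other fits, 5 of them leaving out 1 library (control room temperature 1 or 2, or any cold control; adjusted p from 0.065 to 0.114).

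The promoter windows of 3 genes called in both genotypes are shown because these genes carried the cold result. They lie on the plus strand at chr6:55336049-55336298 for Aqp1, chr2:32646345-32646594 for Eng and chr3:137340828-137341077 for Emcn (RefSeq, GRCm38.p6, 250 bases before the start), and capitals again mark the EBF core.
Aqp1: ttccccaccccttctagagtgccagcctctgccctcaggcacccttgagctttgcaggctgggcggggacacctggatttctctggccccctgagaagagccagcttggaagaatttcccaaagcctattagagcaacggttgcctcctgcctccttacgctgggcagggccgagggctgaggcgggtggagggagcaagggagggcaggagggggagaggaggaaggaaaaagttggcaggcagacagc
Eng: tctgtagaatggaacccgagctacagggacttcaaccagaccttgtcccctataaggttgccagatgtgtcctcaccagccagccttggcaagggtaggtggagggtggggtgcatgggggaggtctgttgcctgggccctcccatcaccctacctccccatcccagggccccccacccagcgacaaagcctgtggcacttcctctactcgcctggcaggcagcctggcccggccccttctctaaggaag
Emcn: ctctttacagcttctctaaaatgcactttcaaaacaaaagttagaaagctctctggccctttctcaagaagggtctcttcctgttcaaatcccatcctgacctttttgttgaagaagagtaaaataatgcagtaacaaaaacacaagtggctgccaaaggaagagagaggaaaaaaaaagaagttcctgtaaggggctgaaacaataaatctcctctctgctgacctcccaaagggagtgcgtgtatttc
None of the 3 windows holds the EBF core, so no letter is in capitals. Emcn holds the extended ETS core TTCCTG, the reverse complement of CAGGAA, 173 and 67 bases before the start. It also holds the hypoxia response core GCGTG 11 bases before the start. CAGGAA or CCGGAA on either strand occurs in 35.1% of all windows, and ACGTG or GCGTG in 38.6%. The Aqp1 and Eng windows hold none of these patterns. The shorter GGAA, which CAGGAA and CCGGAA contain, occurs in each of the 3 windows. Angpt1 is not in the table.

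Pecam1 and Cdh5, the standard endothelial markers, were higher in the cold by smaller steps. Pecam1 went from 130, 145 and 154 CPM to 189, 188 and 219 CPM in controls, a log2 change of 0.47 ± 0.14 that was not called (adjusted p = 0.0708). In mutants it went from 153, 171 and 121 CPM to 217, 238 and 241 CPM and was called (0.64 ± 0.14, adjusted p = 0.0096). Cdh5 in mutants went from 207, 214 and 171 CPM to 282, 277 and 310 CPM (0.55 ± 0.16, adjusted p = 0.0298). In controls Cdh5 was at 165, 231 and 201 CPM and then 237, 274 and 301 CPM, also separate but not called. The Cdh5 call was lost in 8 of the other fits, among them those without mutant room temperature library 1, 2 or 3, cold control library 2 or cold mutant library 1 or 2. The sum of the 10 endothelial markers was 755 to 918 CPM and then 1056 to 1161 CPM in controls, and 662 to 916 CPM and then 1109 to 1205 CPM in mutants. All 6 cold libraries were above all 6 at room temperature. The 10 markers did not all rise. In controls the log2 changes were -0.36 for Tek and Tie1 and 0.06 to 0.11 for Robo4, Erg and Esam. They were 0.45 to 0.91 for Cdh5, Pecam1, Egfl7, Emcn and Eng. In mutants Tek, Robo4 and Tie1 changed least, at -0.14, 0.03 and 0.11. The adipocyte sum was also higher in the cold without overlap. It was 29110 to 33100 CPM and then 37400 to 39140 CPM in controls. In mutants it was 36440 to 43050 CPM and then 47080 to 49810 CPM. Of the 14 adipocyte genes, 1 rose and 1 fell in controls, and 1 rose and 4 fell in mutants. Their median log2 change was -0.05 in controls and -0.27 in mutants, so the list did not rise as a whole. Proliferation genes (10 genes) summed to 46 to 74.6 CPM and then 84.4 to 108 CPM in mutants, where 2 of 10 rose, and overlapped in controls, at 52.4 to 84.8 CPM and then 58.6 to 77.6 CPM. The part of these lists in the marker levels was not tested.

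No VEGF ligand or receptor was called for cold by edgeR, though several had separate groups. Vegfa went from 488, 412 and 620 CPM to 975, 1068 and 938 CPM in controls, with no overlap and a log2 change of 0.97 ± 0.29 (adjusted p = 0.0677). It was called in controls by DESeq2 and limma-voom, when only the 2 groups were fitted, and when cold mutant library 3 was left out (0.97 ± 0.20, adjusted p = 0.0124). Cold mutants held 809, 942 and 411 CPM against 607, 394 and 366 CPM at room temperature, with overlap and a log2 change of 0.66 ± 0.29 (adjusted p = 0.144). Without cold mutant library 3 that change was 0.94 ± 0.22 (adjusted p = 0.0106). Vegfb, a ligand of Flt1, was at 144, 160 and 164 CPM and then 122, 133 and 136 CPM in controls. Those groups were separate, but the log2 change of -0.26 was not called (adjusted p = 0.374). In mutants it was at 170, 145 and 153 CPM and then 138, 155 and 93.5 CPM (-0.28 on the log2 scale, adjusted p = 0.28). Without cold mutant library 3 the change in mutants was -0.095.

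Kdr, the main signalling receptor for VEGF-A, was at 128, 258 and 220 CPM and then 281, 318 and 315 CPM in controls (0.59 ± 0.22, adjusted p = 0.128). In mutants it was at 153, 199 and 159 CPM and then 284, 272 and 232 CPM (0.62 ± 0.22, adjusted p = 0.0731). The cold libraries were the higher in both genotypes, with no overlap. Flt4, the receptor for VEGF-C, was at 11.2, 12.9 and 10.9 CPM and then 13.1, 18.7 and 21.4 CPM in mutants (0.61 ± 0.23, adjusted p = 0.0918). With the replicate number as a block, Kdr, Flt4 and Notch4 joined the called members in mutants, which then numbered 13. Flt1 had overlapping groups in both genotypes, from 78.3 to 182 CPM and then 109 to 136 CPM in controls.

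Aplnr rose in mutants from 16.4, 19.5 and 9.59 CPM to 59.8, 48.4 and 30.7 CPM (1.61 ± 0.30, adjusted p = 0.00389). Controls were at 26.9, 17.8 and 22.3 CPM and then 20.5, 25.3 and 32 CPM, with overlap. The difference between the 2 cold responses was 1.40 ± 0.42 on the log2 scale and was not called by edgeR (adjusted p = 0.202), while DESeq2 (adjusted p = 0.0378) and limma-voom (adjusted p = 0.0233) called it. Its ligand gene Apln was at 6.53, 7.12 and 8.47 CPM and then 11.7, 21.1 and 16.6 CPM in controls (1.16 ± 0.42, adjusted p = 0.126). In mutants Apln was at 8.83, 17.3 and 4.54 CPM and then 21, 19 and 10.4 CPM, so only the controls were separate.

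Efnb2 rose in mutants from 13.1, 7.89 and 10.9 CPM to 23.8, 25.5 and 19.9 CPM (1.12 ± 0.21, adjusted p = 0.00402). In controls it went from 13.5, 20.3 and 16.2 CPM to 22.2, 26.6 and 30.4 CPM (0.66 ± 0.21, adjusted p = 0.0777), also without overlap. Notch4, the Notch receptor largely restricted to endothelium, was at 48.2, 56.5 and 35.5 CPM and then 57.1, 75.5 and 82.3 CPM in mutants (0.62 ± 0.20, adjusted p = 0.0513). Notch1 and Dll4 overlapped in both genotypes, with Notch1 at 45.3, 76.2 and 59.6 CPM and then 47.5, 58.5 and 49.9 CPM in controls (-0.22 on the log2 scale, adjusted p = 0.554). Over all 12 libraries Ephb4, the venous receptor, ran from 52 to 80.9 CPM, while its arterial ligand Efnb2 ran from 7.89 to 30.4 CPM.

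**Figure D3:**
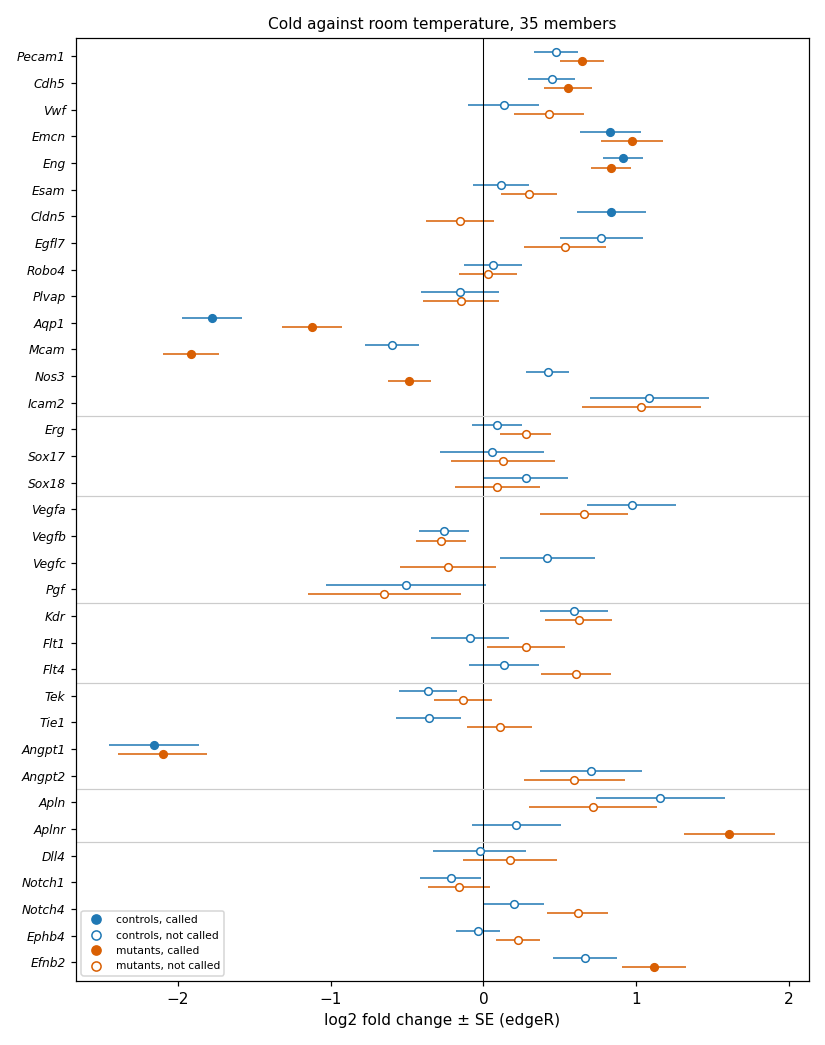
Log2 fold change with its SE for each of the 35 members, cold against room temperature, in controls and in mutants; filled points are called. Angpt1 and Aqp1 lie far to the left in both genotypes, Eng and Emcn lie near 0.9 in both, and Mcam, Aplnr, Cldn5 and Nos3 differ most between the genotypes.

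The 3 genes that were high in mutants at room temperature gave unlike values for cold in the 2 genotypes. The mutant libraries at room temperature, by which these genes were picked, also enter the cold change in mutants and the difference between responses. High values there favour a fall in mutants and a negative difference. Mcam fell in mutants from 206, 180 and 196 CPM to 53.3, 48.1 and 52.8 CPM (-1.92 ± 0.18, adjusted p = 0.000108). In controls it went from 105, 74.4 and 61.7 CPM to 44.2, 59.6 and 55.1 CPM (-0.60 ± 0.18, adjusted p = 0.0671), and the 2 genotypes overlapped in the cold. The difference between the cold responses was -1.32 ± 0.25 (adjusted p = 0.0492), the only member called for it, where 0.478% of all genes were. This call was close to the threshold and held in 4 of 22 other fits. It was lost, for example, under every fit that left out 1 library, except those without control room temperature library 1, with adjusted p up to 0.196. Cspg4 was at 180, 268 and 259 CPM and then 79.3, 82.6 and 140 CPM in mutants and fell there, the 1 of 16 mural markers called. The mural sum overlapped, at 739 to 1016 CPM and then 487 to 956 CPM.

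Nos3 fell in mutants from 95, 98.8 and 113 CPM to 74.5, 65.3 and 79.6 CPM (log2 change -0.49 ± 0.14, adjusted p = 0.0358), a call lost in 7 of the other fits (5 of them without mutant room temperature library 2 or 3, cold control library 3 or cold mutant library 1 or 2). In controls it was at 40.2, 45 and 44.6 CPM and then 47, 67.8 and 58.8 CPM, separate in the other direction. The difference between these responses was -0.91 ± 0.20 and not called in edgeR (adjusted p = 0.0914), while DESeq2 and limma-voom called it. Atg9b, the antisense gene that overlaps Nos3, was at 7.6, 7.3 and 6.28 CPM and then 13.7, 18 and 14.8 CPM in controls, and at 11.4, 12 and 13.6 CPM and then 11.7, 15 and 7.13 CPM in mutants.

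Cldn5 rose in controls from 31.7, 22.4 and 24.8 CPM to 60.9, 38.6 and 41.7 CPM (0.84 ± 0.23, adjusted p = 0.0488), a call lost in 14 of the other fits. Among these were 9 of the 12 that left out 1 library, the exceptions being those without control room temperature library 1 and cold mutant libraries 2 and 3. Mutants were at 62.9, 72.2 and 85 CPM and then 60.2, 51.6 and 86.1 CPM, with overlap. The difference was -0.99 ± 0.32 (adjusted p = 0.229). The room temperature genotype comparison and the cold comparison in controls use the same 3 control libraries. For Cldn5 and Nos3 those libraries were the lowest group of the 4.

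Egfl7, a secreted factor of endothelium, was at 69.4, 40.5 and 74.5 CPM and then 121, 105 and 89 CPM in controls (0.77 ± 0.27, adjusted p = 0.106). Part of its exon sequence, 12.8%, is shared with other genes, among them the antisense adipocyte gene Agpat2, at 880, 1247 and 823 CPM and then 2466, 2361 and 2369 CPM in controls. The part of Agpat2 reads in the Egfl7 count was not tested. The leukocyte adhesion gene Icam2 was at 10.6, 5.52 and 11.4 CPM and then 20.4, 17.7 and 20.4 CPM in controls (1.09 ± 0.39, adjusted p = 0.117), without overlap. In mutants Icam2 was at 13.4, 8.83 and 4.73 CPM and then 21.6, 23 and 10.9 CPM.

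The remaining members were called in no comparison. The blood-clotting factor gene Vwf ran from 21.4 to 36 CPM over 11 libraries, with 56.3 CPM in cold mutant library 3. The junction gene Esam ran from 40.2 to 81.4 CPM, the guidance receptor gene Robo4 from 38.5 to 68.5 CPM, and Plvap, of the diaphragms of fenestrated capillaries, from 8.76 to 19.3 CPM. Among transcription factor genes Erg ran from 18.1 to 30.6 CPM, Sox17 from 10 to 25.3 CPM and Sox18 from 19.6 to 44.2 CPM. Their ranges overlapped between room temperature and cold in each genotype.

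Across the 35 members, the cold responses of the 2 genotypes, which share no library, had a Pearson correlation of 0.781 and a Spearman correlation of 0.737. These are across genes, which are not independent, and the same correlation over all genes tested was 0.525. The change had the same sign in 28 of 35 members (80%), against 70.1% of all genes. Angpt1, Aqp1, Eng and Emcn were called in both, each in the same direction. Groups were separate in 17 members in controls (13 higher, 4 lower) and in 13 in mutants (9 higher, 4 lower), against 33.3% and 32.6% of all genes. Higher and separate were 18.9% of all genes in controls and 16.7% in mutants.

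**Figure D4:**
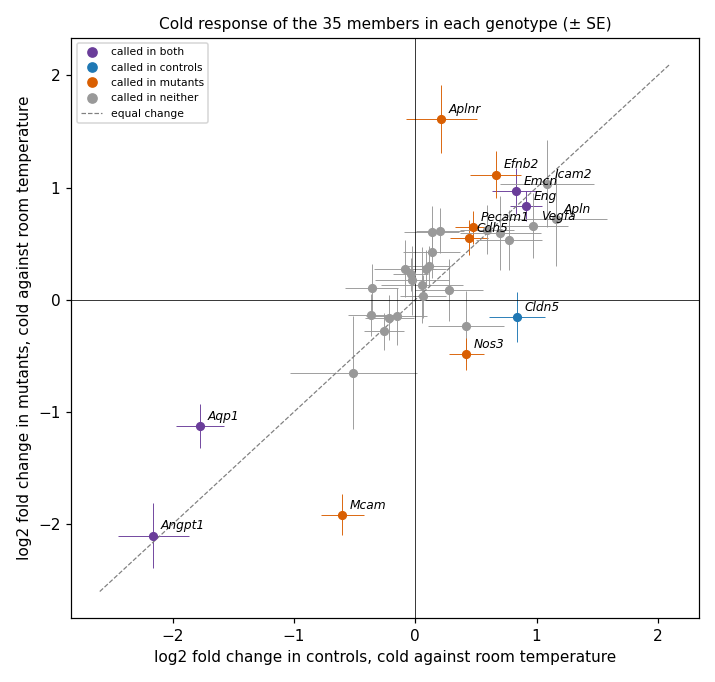
Log2 fold change in the cold for each of the 35 members, controls on the x axis and mutants on the y axis, with SE bars and a dashed line of equal change. Angpt1 lies near the line at -2.16 and -2.10, Mcam lies below it and Aplnr above it.

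Some related genes outside the members were also called in the cold. In controls, 2 of 39 further endothelial genes rose and 1 fell, and in mutants 3 rose and 3 fell. These counts are near the share over all genes, 6.62% called in controls and 17.4% in mutants. Tm4sf1, a tetraspanin-like protein of endothelium, went from 34.8, 33.7 and 41 CPM to 71.8, 69.3 and 65 CPM in controls (0.91 ± 0.17). Of the VEGF, angiopoietin and hypoxia list, 4 of 42 rose and 1 fell in controls, and 6 rose and 5 fell in mutants. Egln1, encoding an oxygen sensor that hydroxylates hypoxia-inducible factors, rose from 168, 227 and 198 CPM to 457, 509 and 551 CPM in controls (1.35 ± 0.16) and from 178, 168 and 192 CPM to 563, 659 and 476 CPM in mutants (1.66 ± 0.16). Its relative Egln3 rose in controls from 23.6, 8.94 and 17.6 CPM to 51.4, 56.5 and 62.4 CPM (1.76 ± 0.27). The chemokine gene Cxcl12 rose in controls from 116, 164 and 170 CPM to 300, 322 and 453 CPM (1.26 ± 0.23).

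Svep1, an extracellular matrix gene, fell from 142, 132 and 145 CPM to 24.4, 30.7 and 28.7 CPM in controls (-2.32 ± 0.28) and from 160, 180 and 204 CPM to 24.1, 19.1 and 49 CPM in mutants (-2.56 ± 0.29). The fall was about as large as that of Angpt1. Angptl2 fell in mutants (-1.57 ± 0.22) and Fgf1 rose there (1.78 ± 0.29). Of 18 further Notch genes, 1 rose in controls, the target gene Hey1, from 5.16, 5.45 and 6.92 CPM to 14.5, 11.2 and 15 CPM (1.21 ± 0.25). The Hey1 call was lost without control room temperature library 2 or cold control library 1 or 3. In mutants 2 rose and 2 fell, among them Mfng, from 78.8, 88.8 and 83.8 CPM to 26, 30.4 and 26.3 CPM (-1.60 ± 0.25). Mfng, like Mcam, was highest in mutants at room temperature. Cav1 fell in mutants too (-0.80 ± 0.13). Without the muscle-rich libraries, of the wider-list genes named with values Mfng at room temperature, Egln3 in controls and the 6 named in mutants stayed called.

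Fibroblast markers summed to 2367 to 3564 CPM and then 1564 to 1959 CPM in controls, and to 5149 to 6154 CPM and then 1405 to 3718 CPM in mutants, where 3 of 10 fell. Lens genes rose in 9 of 12 in mutants, from a sum of 55.2 to 103 CPM to one of 158 to 245 CPM. Without the muscle-rich libraries, 0 members were called for cold in controls and 6 in mutants (Eng, Aplnr and Efnb2 higher, Aqp1, Angpt1 and Mcam lower). These 6 were called in mutants in all 23 other fits. In controls the log2 changes without those libraries were -2.55 for Angpt1 (adjusted p = 0.0881), -2.00 for Aqp1 (adjusted p = 0.0561) and 1.00 for Eng (adjusted p = 0.126). The part of fibroblast, lens and muscle RNA in the member calls was not tested.

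**Figure D5:**
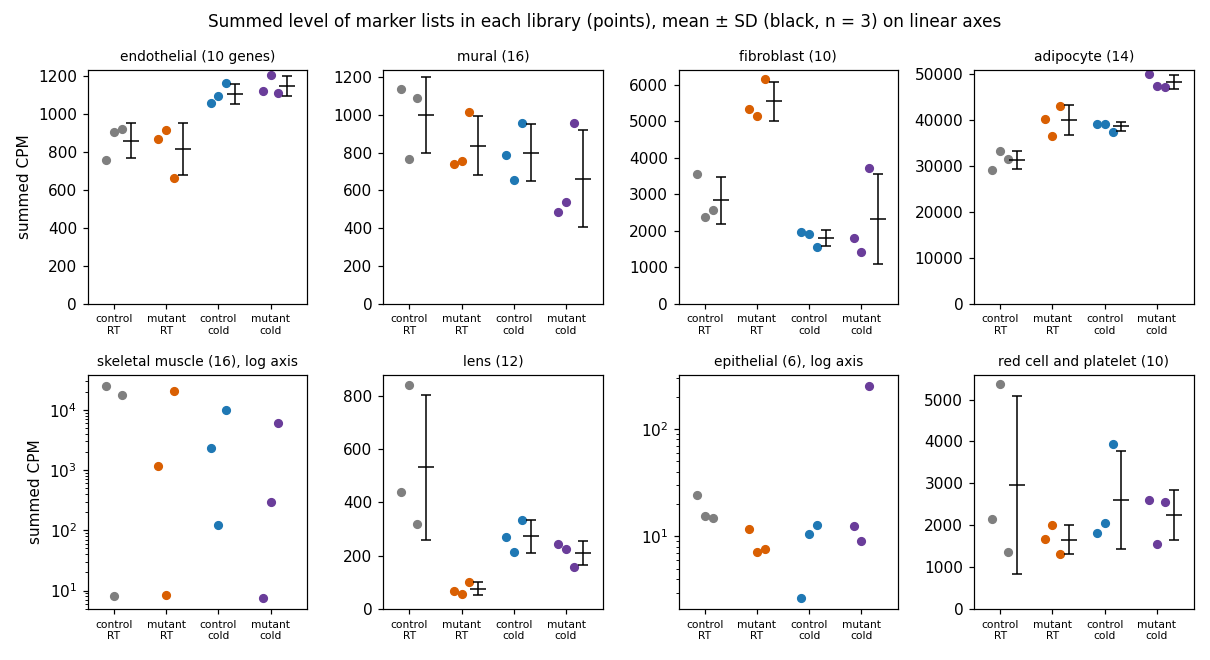
Summed CPM of 8 marker lists in each library (points) in the 4 groups, with mean and SD of 3 libraries on the linear axes; muscle and epithelial lists are on log axes without a mean. The endothelial sum is higher in all 6 cold libraries, the fibroblast sum is highest in mutants at room temperature, and the muscle sum varies within every group.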

How the data were processed

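Gene counts of 12 brown adipose tissue libraries were analysed as deposited. Per the submitters' processing notes the authors used STAR and featureCounts on build mm9. Versions, gene annotation, strandedness and the rule for multi-mapped reads were not given in the sources used here. Library totals ran from 25835650 to 37927038 counts, at which 3 counts are 0.0764 to 0.114 CPM. No column was left without a sample.

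From these counts, genes passing filterByExpr (minimum count 10, minimum total 15) were kept, and TMM scaling and edgeR 4.0.16 (R 4.3.3) quasi-likelihood F-tests were run in 1 robust fit of all 12 libraries with 1 coefficient per group and 5 contrasts. P-values are two-sided and Benjamini-Hochberg adjusted over all 15265 genes, and below 0.05 a gene is called. The SE of a log2 fold change is its size over the square root of F. The script was tested on simulated counts with known changes. Alternatives were DESeq2 1.42.0, limma-voom with quality weights (limma 3.58.1), other scalings and filters, a non-robust fit, fits of only the groups compared, removal of muscle, lens and epithelial genes, a replicate block, each library left out, and the 4 muscle-rich libraries left out.

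Exon lengths and gene overlaps come from GENCODE M21 (GRCm38), matched by symbol for all 35 members, and serve only to order levels and name overlapping genes. Promoter windows are RefSeq's. The members, the lists and the muscle-rich libraries were chosen with earlier results of these data known. Full statistics were given to members called in a comparison, with an unadjusted p under 0.01, or with separate groups and a log2 change of at least 0.5. A set of 13 signal and marker genes (Pecam1, Cdh5, Kdr, Flt1, Vegfa, Vegfb, Angpt1, Angpt2, Apln, Aplnr, Dll4, Notch1 and Notch4) was always named, with a fold change in the comparison with its smallest p. Of the wider lists, at most 6 called genes a comparison were named, by smallest p.

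The labels number replicates 1 to 3 in every group, but nothing ties a number to a litter or day. Correlations of same-numbered deviations on log2 CPM (prior count 1) were 0.165, 0.719 and 0.488 between genotypes at room temperature, -0.03, 0.206 and 0.491 in the cold, 0.142, 0.647 and 0.456 across temperature in controls, and 0.03, 0.151 and 0.577 in mutants. On log2 of CPM plus 1, not every one of these groups of correlations kept its side of 0.1, so the pairing is unsettled and blocked counts are given.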

Additional observations from a re-analysis of the deposited data

Results flagged for a closer look

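Mcam was singled out because its response to cold differed between the genotypes by a test of that difference. The log2 value was -1.32 ± 0.25 (mutants minus controls, adjusted p = 0.0492), from a cold change of -1.92 in mutants and -0.60 in controls. It passed the threshold in 4 of 22 other fits.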

How the results depend on the processing

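Of the values for single genes recomputed in other fits, 1283 kept their direction and their side of the threshold, 92 lost a call, 43 gained one and 4 changed sign, all 4 for Ebf2 at room temperature. Ebf2 there was -0.067 on library totals without TMM and -0.20 without the 4 muscle-rich libraries, and ranged from -0.18 to 0.33 when 1 library was left out.

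Members called between genotypes at room temperature numbered 3, and 5 under limma-voom with quality weights, 0 without the muscle-rich libraries and 3 to 5 with 1 library left out. Over all 15265 genes tested, limma-voom called 2844 in that comparison. In the cold the member count was 0, with 1 under limma-voom, which called 1119 of all genes, and 0 in each fit without 1 library. For cold in controls it was 5, with 12 under DESeq2, 12 under limma-voom, 0 without the muscle-rich libraries and 3 to 7 with 1 library left out. Over all genes DESeq2 called 2018 there and limma-voom 3402. The member count was 3 without control room temperature library 2 or any 1 cold control. For cold in mutants it was 10, with 6 without the muscle-rich libraries and 8 to 13 with 1 library left out. For the difference between the cold responses DESeq2 called 452 of all genes and limma-voom 1121. The member count in the main fit was 1. It became 0 with DESeq2 size factors in edgeR, on library totals, without a filter, in a non-robust fit, with muscle, lens and epithelial genes removed and without the muscle-rich libraries, 3 under DESeq2, 4 under limma-voom and 0 to 1 with 1 library left out.

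With the replicate number as a replicate block the counts were 3, 0, 5, 13 and 0 in the same order. The block added Kdr, Flt4 and Notch4 for cold in mutants and removed Mcam for the difference between responses.

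Scaling by library totals moved the median log2 change of all genes from -0.04 to -0.19 at room temperature between genotypes, from -0.01 to -0.20 for cold in controls and from 0.02 to 0.19 for the difference between responses. Leaving out the 4 muscle-rich libraries leaves 1 control at room temperature, assumed to vary like the other groups. Low genes (Pgf, Vegfc, Angpt2) rest on few counts, and floors cover counting error only.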
